A study of Homo sapiens with 6 samples.

Results

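GSPT2, GSPT1 and ETF1 encode the cytosolic release factors that end protein synthesis, and they were followed over 6 single-channel oligonucleotide arrays of HT1080 RNA. All probe sets whose only gene symbol in the platform annotation was 1 of these 3 genes were taken, which gave 6 of 22283 probe sets: 1 for GSPT2, 3 for GSPT1 and 2 for ETF1. The trio was selected on measured values, because the GSPT2 signal with alpha3 siRNA stood out against mock in an earlier analysis of these arrays, and GSPT1 and ETF1 were added as its closest relative and its partner. The differences of GSPT2 from mock are therefore given as a description, with no test.

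HT1080 is a line established from a human fibrosarcoma. The 3 groups of 2 arrays were mock cells (titled GUS) that had received the pGUS vector expressing GFP alone, cells whose vector also expressed an siRNA against the mRNA of MT1-MMP, and cells whose vector also expressed an siRNA against integrin alpha3. All 3 groups thus carried the vector and GFP, and the mock vector is described without any siRNA. Neither clones nor pools are named in the labels, nor separate cultures for the arrays within a group, so a p-value here measures the array-to-array spread alone, and that may be technical. MT1-MMP is a membrane-bound collagenase encoded by MMP14, and integrin alpha3, the product of ITGA3, is part of a laminin receptor.

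At a stop codon, the ETF1 product (release factor eRF1) enters the ribosome, reads the codon and triggers release of the finished chain. The GSPT1 and GSPT2 products (eRF3a and eRF3b) are alternative GTPase partners of eRF1 that speed this step and, through the poly(A)-binding protein, connect termination with mRNA decay. GSPT1 is the widely expressed form. GSPT2 is an intronless X-linked copy derived from a GSPT1 mRNA, with its best known expression in brain.

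Likeness of GSPT2 to GSPT1 is visible in the RefSeq sequence before its annotated start, and the likeness of the genes is why each probe set was kept apart. The 250 bases upstream of the GSPT2 start (GRCh38.p14, chrX:51743192-51743441, plus strand) are shown 5′ to 3′, with the 2 runs of at least 12 bases that also occur in a GSPT1 start region in capitals.
GSPT2 upstream: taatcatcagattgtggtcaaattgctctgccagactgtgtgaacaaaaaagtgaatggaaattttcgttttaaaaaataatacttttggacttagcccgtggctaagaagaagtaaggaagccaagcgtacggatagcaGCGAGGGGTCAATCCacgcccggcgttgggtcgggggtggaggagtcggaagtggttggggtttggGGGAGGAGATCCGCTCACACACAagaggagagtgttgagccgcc
The first run, GCGAGGGGTCAATCC, has 15 bases, begins 110 bases before the GSPT2 start and lies at position -73 relative to a GSPT1 start on chromosome 16. The second, GGGAGGAGATCCGCTCACACACA, has 23 bases and begins 44 bases before the GSPT2 start. This second run lies at position -12 relative to the same GSPT1 start. Among 35116 start regions of 300 bases in the same table, each run was found in 2, those of GSPT1 and GSPT2. The runs show likeness and do not by themselves show how the copy arose. The GSPT2 region held 17 CpG dinucleotides and the GSPT1 region with the shared runs held 35. That GSPT1 region also held a GC box (GGGCGG, both strands searched, in 45.0% of all regions), which was not among the letters of the GSPT2 region. These sequences describe the genes and not the probes, whose own sequences were not used here.

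GSPT2 was low on both mock arrays and several times higher on all 4 siRNA arrays. Its probe set, 205541_s_at, had signals of 26.9 and 21.3 in mock cells, 169.0 and 171.7 under MT1-MMP siRNA, and 169.2 and 185.1 under alpha3 siRNA. The lowest siRNA array was 6.28 times the highest mock array, so the siRNA groups did not overlap with mock, while the 4 siRNA arrays themselves lay within 1.10-fold of each other. Group means were 24.1 ± 3.96 (SD, n = 2) in mock, 170.4 ± 1.91 (SD, n = 2) with MT1-MMP siRNA and 177.2 ± 11.2 (SD, n = 2) with alpha3 siRNA, which are 7.07 and 7.35 times the mock mean. In brightness the GSPT2 probe set stood at percentiles 30.2 and 24.1 of all probe sets on the mock arrays and between percentiles 65.3 and 67.8 on the siRNA arrays. The mock signals therefore lay in the dim part of the array, and detection calls, which would say whether they exceeded background, were not analysed here. Whether the probes of the GSPT2 probe set also match GSPT1 or other transcripts was not tested.

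Changes were tested on log2(signal + 32) with limma, after removing probe sets whose mean lay under the 40th percentile (signal 47.5). The offset of 32 damps changes of dim probe sets, so the fold changes on this scale understate them. On it, GSPT2 stood 1.85 above mock with MT1-MMP siRNA and 1.9 above mock with alpha3 siRNA. Of the 11828 probe sets tested, 0.287% had a larger rise in the first comparison and 0.0845% in the second. These places follow from the choice of GSPT2 for its rise and are no support for it. All 4 siRNA arrays lay above both mock arrays for 4.97% of the probe sets tested, and nothing is read from the place of GSPT2 among them, since this contrast chose it. With the mean of both siRNA groups against mock, GSPT2 stood at 1.88, which is likewise a description. GSPT2 passed the filter only through its siRNA arrays, since both mock signals lay under 47.5. Both siRNA comparisons share the same mock arrays, so their values are not independent.

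The siRNA groups did not differ detectably from each other in GSPT2. The log2 fold change of MT1-MMP siRNA against alpha3 siRNA was -0.05 (95% interval -0.53 to 0.43, limma adjusted p = 0.919), and the arrays of the groups overlapped. That interval bounds the difference and does not show that the levels were equal. In the same comparison 1.37% of probe sets passed the adjusted threshold, with 98 higher and 64 lower.

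**Figure D1:**
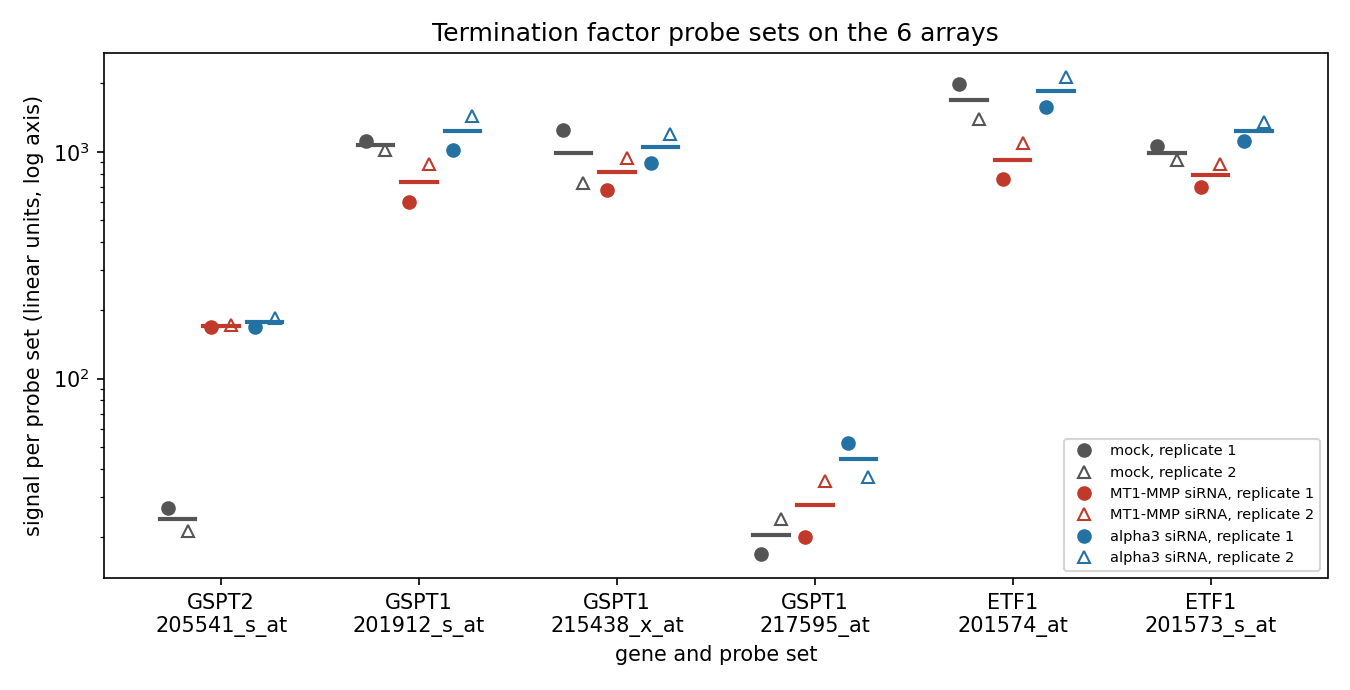
Signal per probe set (linear units on a log axis) of the 6 probe sets on each array, with circles for replicate 1, triangles for replicate 2 and bars for group means. The 4 siRNA arrays of GSPT2 sit between 169.0 and 185.1, above mock signals of 26.9 and 21.3, while the bright GSPT1 and ETF1 probe sets are lowest on MT1-MMP siRNA replicate 1.

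GSPT1, the parent of GSPT2, showed no such step from mock to the siRNA groups. Its probe set 201912_s_at had signals of 1119 and 1019 in mock, 597.9 and 878.4 under MT1-MMP siRNA, and 1016 and 1442 under alpha3 siRNA. The MT1-MMP siRNA arrays were both below mock, and the alpha3 siRNA arrays overlapped with mock. On the log2 scale it stood at -0.54 against mock with MT1-MMP siRNA (95% interval -1.11 to 0.03, limma adjusted p = 0.373) and 0.18 with alpha3 siRNA (-0.39 to 0.74, limma adjusted p = 0.942), the latter -0.07 without alpha3 siRNA replicate 2.

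The probe set 215438_x_at of GSPT1 gave similar means with a wider spread. It had 1250 and 730.7 in mock, 680.2 and 941.3 under MT1-MMP siRNA, and 891.5 and 1197 under alpha3 siRNA, and no pair of groups was separated. Its name carries the suffix that the array maker gives to probe sets whose probes can also match other transcripts. GSPT2 205541_s_at, GSPT1 201912_s_at and ETF1 201573_s_at carry the suffix _s_at. Whether their probes also match other transcripts was not tested, because probe sequences were not used. The GSPT2 signal is therefore not shown to be specific to GSPT2. Relative to mock, the log2 values of 215438_x_at were -0.25 for MT1-MMP siRNA (limma adjusted p = 0.743) and 0.11 with alpha3 siRNA (limma adjusted p = 0.975). The first turned to 0.13 without mock replicate 1, and the second to -0.27 without mock replicate 2 and -0.10 without alpha3 siRNA replicate 2.

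The third GSPT1 probe set, 217595_at, was dim and fell under the filter. Its signals were 16.8 and 24.0 in mock, 20 and 35.5 under MT1-MMP siRNA, and 51.9 and 36.7 under alpha3 siRNA. Only the alpha3 siRNA arrays lay apart from mock. Fitted without the filter over 19065 probe sets, its log2 fold change was 0.54 with alpha3 siRNA (limma adjusted p = 0.957) and 0.18 with MT1-MMP siRNA (limma adjusted p = 0.869). Levels of different probe sets are not comparable, so this signal says nothing of how much GSPT1 RNA was present.

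The change of GSPT2 relative to GSPT1 was read on each array from 205541_s_at and 201912_s_at, as the log2 gap between them minus its mean on the mock arrays. The gap was 2.65 and 2.13 under MT1-MMP siRNA, and 1.91 and 1.53 under alpha3 siRNA, against 0.0059 and -0.0059 in mock. The signals of both genes thus moved unequally on all 4 siRNA arrays, and since GSPT2 was chosen for its own rise, this is a description.

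ETF1 had its lowest signals with MT1-MMP siRNA on both of its probe sets. On 201574_at the signals were 1981 and 1395 in mock, 755.8 and 1088 under MT1-MMP siRNA, and 1577 and 2138 under alpha3 siRNA. The MT1-MMP siRNA arrays lay below all 4 others, and the alpha3 siRNA arrays overlapped with mock. The mean was 1688 ± 414 (SD, n = 2) in mock and 922.0 ± 235 (SD, n = 2) with MT1-MMP siRNA, 0.546 times the mock mean. The log2 fold change was -0.85 (95% interval -1.45 to -0.25), which did not pass over all probe sets (limma adjusted p = 0.228), and it was 0.14 with alpha3 siRNA (limma adjusted p = 0.961), or -0.11 without mock replicate 2 and -0.07 without alpha3 siRNA replicate 2.

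On 201573_s_at, ETF1 had 1056 and 920.1 in mock, 697.1 and 883.7 under MT1-MMP siRNA, and 1113 and 1355 under alpha3 siRNA. All 3 groups were separated in that order, MT1-MMP siRNA lowest and alpha3 siRNA highest. The log2 fold changes against mock were -0.32 (limma adjusted p = 0.522) and 0.31 (limma adjusted p = 0.907), so neighbouring groups did not differ beyond the test's error. The ETF1 probe sets therefore had the same direction with MT1-MMP siRNA and differed in size.

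Between the siRNA groups, the 4 GSPT1 and ETF1 probe sets above the filter all had log2 differences below 0 for MT1-MMP siRNA against alpha3 siRNA. ETF1 201574_at differed by -0.99 (95% interval -1.59 to -0.40, limma adjusted p = 0.0864), GSPT1 201912_s_at by -0.71 (limma adjusted p = 0.144), ETF1 201573_s_at by -0.62 (limma adjusted p = 0.131) and GSPT1 215438_x_at by -0.36 (limma adjusted p = 0.510). By limma 0 of the 4 were called, and 3 had an unadjusted p under 0.05, a level reached by 22.6% of all probe sets tested. The arrays were separated for 3 of the 4, and 25.6% of all probe sets tested were separated in this direction.

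**Figure D2:**
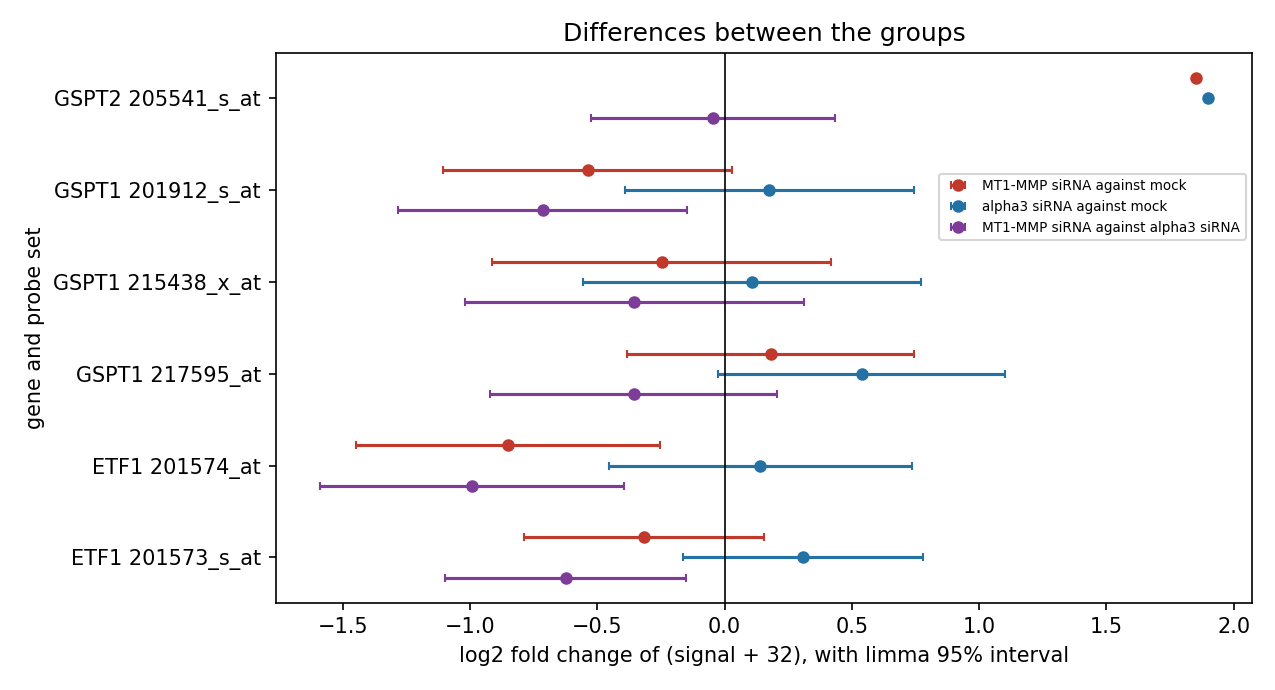
Log2 fold change of (signal + 32) for each probe set in 3 comparisons, with limma 95% intervals as bars. The differences of GSPT2 from mock (1.85 and 1.9) are drawn without intervals because they chose the gene, and the ETF1 probe sets and GSPT1 201912_s_at lie left of 0 in MT1-MMP siRNA against alpha3 siRNA with intervals that do not reach 0 before adjustment over all probe sets.

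Against mock, limma also called 0 of these 4 probe sets with either siRNA. With MT1-MMP siRNA 1 of the 4, ETF1 201574_at, had an unadjusted p under 0.05, as had 14.1% of all probe sets, and 3 of the 4 were separated from mock on the lower side, as were 24.8% of all probe sets (24.3% were separated on the higher side). With alpha3 siRNA 0 of the 4 had an unadjusted p under 0.05, against 5.36% of all probe sets, and 1 of the 4 was separated on the higher side, as were 16.7% of all probe sets. Over all probe sets the limma threshold was passed by 0.0169% with MT1-MMP siRNA and by 0.00845% with alpha3 siRNA, so few calls could be made among the members.

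GSPT1 and ETF1 also shared the order of arrays within groups. In each of their 4 probe sets above the filter the higher array was mock replicate 1, MT1-MMP siRNA replicate 2 and alpha3 siRNA replicate 2, an order held by 17.2% of all probe sets tested. GSPT1 201912_s_at and both ETF1 probe sets had their lowest signal on MT1-MMP siRNA replicate 1 and their highest on alpha3 siRNA replicate 2. For GSPT1 201912_s_at the log2 fold change with MT1-MMP siRNA was -0.80 without replicate 2 of that group and -0.27 without replicate 1, and for ETF1 201574_at it was -1.11 and -0.60. The array on which they were lowest also stood apart in the 18 spiked hybridisation control probe sets, whose median was 2.30 times the mock mean there, against 1.29 on MT1-MMP siRNA replicate 2 and 0.812 to 1.07 on the other arrays. The part of this in the GSPT1 and ETF1 values was not tested.

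The targets and cell type markers served as a check of the labels. MMP14 had 811.9 and 716.9 with MT1-MMP siRNA against 1971 and 3064 in mock, and its 998.9 and 1804 with alpha3 siRNA were also below both mock arrays. ITGA3 had 148.2 and 347.1 with alpha3 siRNA against 1139 and 1290 in mock, and 1481 and 1634 with MT1-MMP siRNA. All 10 mesenchymal markers lay above the filter, with a summed signal of 34866 to 41472 in mock, 50344 to 63922 with MT1-MMP siRNA and 35765 to 40176 with alpha3 siRNA. The sum was thus higher in the group where GSPT1 and ETF1 were lowest, and its part in their values was not tested. With MT1-MMP siRNA 7 of the 10 markers had a log2 fold change above 0 and 3 below, and none was called. The leukocyte markers summed to 227.2 to 399.0 with 3 of 9 above the filter, and the endothelial markers to 317.1 to 1081 with 4 of 9. The epithelial markers summed to 3113 to 3385 in mock, 2383 to 2815 with MT1-MMP siRNA and 4292 to 4793 with alpha3 siRNA, with 3 of 10. Their median signal went the other way with alpha3 siRNA, at 7.4 to 11.5 against 19.4 to 30.3 in mock, so the set did not rise as a whole.

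The genes whose pattern over the 6 arrays came closest to GSPT2 were NPY, THBS1, HTR4, NSUN5 and TGFB2. Likeness was the root mean square difference of log2(signal + 32) after centring on the mean of the 6 arrays, over the brightest probe set of 8045 genes, and was 0.392 for NPY and 0.490 for TGFB2. These 5 resemble GSPT2 partly because they were sought for it, and the arrays are the same 6, so the values are a description.

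NPY, a neuropeptide, had 28.1 and 8.5 in mock, 96.9 and 120.7 under MT1-MMP siRNA, and 67.0 and 68.0 under alpha3 siRNA. HTR4, a serotonin receptor, had 27.4 and 26.5, then 112.2 and 112.7, then 59.6 and 96.4. THBS1, a matrix glycoprotein that inhibits vessel growth, had 203.6 and 242.4, then 590.2 and 761.8, then 1251 and 589.3. In these 3, and also in NSUN5 and TGFB2, all siRNA arrays lay above both mock arrays, which the search for likeness to GSPT2 favoured. NSUN5, an RNA methyltransferase of the ribosome, had 284.5 and 222.2 in mock, 513.5 and 409.1 under MT1-MMP siRNA, and 834.3 and 701.0 under alpha3 siRNA. TGFB2, a growth factor, had 50.8 and 52.7, then 169.8 and 114.0, then 126.3 and 106.7. By the same measure GSPT1 201912_s_at ranked 6465 of 8045 and ETF1 201574_at 7608.

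**Figure D3:**
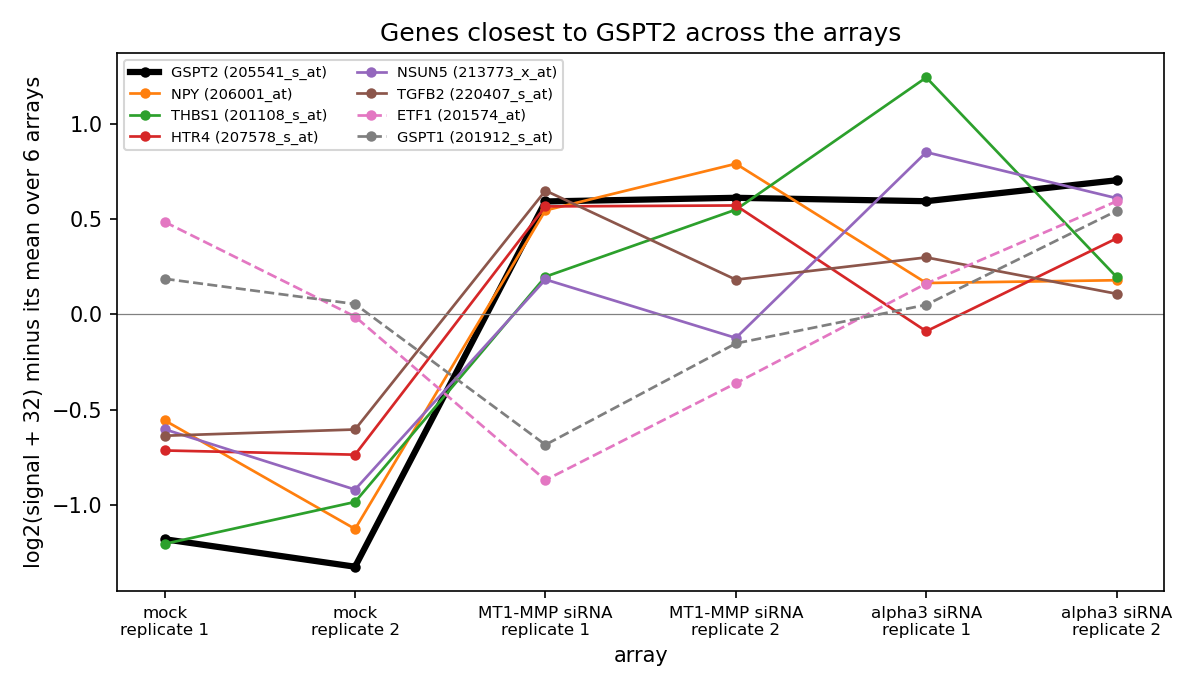
Log2(signal + 32) minus its mean over the 6 arrays (y axis) on each array (x axis) for GSPT2, the 5 closest genes and, dashed, GSPT1 and ETF1; lines only join the values of a gene. GSPT2 runs from -1.18 and -1.32 on the mock arrays to between 0.59 and 0.70 on the siRNA arrays, while ETF1 and GSPT1 are lowest on MT1-MMP siRNA replicate 1.

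The nearest coding genes on the X chromosome with a probe set above the filter, 3 on each side of GSPT2, had their lowest limma adjusted p against mock at 0.0503. Only MAGED1 was adjacent, and between 6 and 15 coding genes lay between GSPT2 and each of the others. MAGED1, the next protein-coding gene in RefSeq, had 1153 and 1531 in mock, 1689 and 1550 under MT1-MMP siRNA, and 1414 and 883.0 under alpha3 siRNA, and both siRNA groups were within 0.28 of mock on the log2 scale. PAGE1, a cancer-testis gene, had 98.7 and 876.9 with alpha3 siRNA against 50.9 and 28.7 in mock (limma adjusted p = 0.892), and 66.7 and 20.8 with MT1-MMP siRNA. GAGE1, of the same class, had 93.6 and 107.7 in mock against 3.7 and 1.7 on the MT1-MMP siRNA arrays (log2 fold change -1.93, limma adjusted p = 0.0503). That direction was opposite to GSPT2 in this group only. With alpha3 siRNA GAGE1 had 147.1 and 112.2, both above mock (log2 fold change 0.28, limma adjusted p = 0.923). Between the siRNA groups GAGE1 was called (-2.21, limma adjusted p = 0.0244), as were 1.37% of all probe sets tested. It passed the filter only through its mock and alpha3 siRNA arrays, since both MT1-MMP siRNA signals lay far under 47.5. These neighbours were chosen after the GSPT2 values had been seen.

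Among other translation genes, 119 in 6 lists, 87 were tested, and none was called in limma against mock with either siRNA. Termination and recycling partners had a median log2 fold change of -0.10 with MT1-MMP siRNA over 13 genes and 0.0026 with alpha3 siRNA, against 0.0039 and -0.01 over all probe sets. With MT1-MMP siRNA 10 of the 13 lay below 0, with 3 at an unadjusted p under 0.05, and with alpha3 siRNA 0 reached that level. For this and the other lists, the shares over all probe sets were 14.1% at an unadjusted p under 0.05 and 50.4% above 0 with MT1-MMP siRNA. The corresponding shares for alpha3 siRNA were 5.36% and 48.4%. ABCE1, the ATPase that splits ribosomes after termination, had 2159 and 1731 in mock, 1218 and 1475 under MT1-MMP siRNA, and 1818 and 2191 under alpha3 siRNA. DDX19A, an RNA helicase, had 378.6 and 413.9, then 251.9 and 231.1, then 405.0 and 453.6. JMJD4, which hydroxylates eRF1, had 69.6 and 53.9, then 26.1 and 13.2, then 56.1 and 135.9. All 3 were below mock on both MT1-MMP siRNA arrays, with limma adjusted p-values of 0.308, 0.220 and 0.315 in that comparison. Genes of this and the other lists were named for a low p, which favours such separation. Of the 13 genes, 6 were separated from mock on the lower side with MT1-MMP siRNA and 3 on the higher side. Over all probe sets these shares were 24.8% and 24.3%.

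Nonsense-mediated decay is the pathway that destroys mRNAs with premature stop codons and acts through the release factors. Its median log2 fold change with MT1-MMP siRNA was -0.28 over 15 genes, none of them called, 14 of them below 0, with 4 at an unadjusted p under 0.05, and -0.04 with alpha3 siRNA, with 10 below 0 and 1 at that level. The helicase DHX34 had 105.7 and 127.1 in mock, 50.9 and 54.1 under MT1-MMP siRNA, and 119.6 and 104.6 under alpha3 siRNA (limma adjusted p = 0.196 with MT1-MMP siRNA). SMG5, a decay adaptor, had 193.1 and 145.7, then 99.4 and 79.7, then 172.3 and 186.6 (limma adjusted p = 0.227). Both genes were separated from mock with MT1-MMP siRNA and not called. Of the 15 genes, 9 were separated on the lower side in that comparison and 1 on the higher side, against 24.8% and 24.3% of all probe sets. MAGOHB, a subunit of the exon junction complex, had 60.3 and 46.6, then 17.1 and 67.8, then 161.5 and 107.5, so that only the alpha3 siRNA arrays were separated from mock (limma adjusted p = 0.892).

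Poly(A)-binding proteins and deadenylases had medians of 0.17 with MT1-MMP siRNA (9 of 14 above 0, 2 at an unadjusted p under 0.05) and -0.13 with alpha3 siRNA (4 of 14 above 0, 1 at that level). PABPC3, a testis-type poly(A)-binding protein whose probe set may also match its relative PABPC1, had 3261 and 2099 in mock, 4442 and 4562 under MT1-MMP siRNA, and 3451 and 4225 under alpha3 siRNA. BTG1, an antiproliferative cofactor of deadenylases, had 766.6 and 652.9, then 1115 and 1086, then 631.4 and 550.5. CNOT8, a deadenylase subunit, had 303.7 and 396.4, then 362.4 and 317.7, then 270.0 and 243.0. Both MT1-MMP siRNA arrays exceeded mock for PABPC3 and BTG1 (limma adjusted p = 0.213 and 0.229). The alpha3 siRNA arrays were also above mock for PABPC3 (limma adjusted p = 0.892), and were below mock for BTG1 and CNOT8.

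Elongation factors had medians of 0.15 with MT1-MMP siRNA over 8 genes (1 at an unadjusted p under 0.05) and 0.20 with alpha3 siRNA (0 at that level). EEF1A1, which delivers aminoacyl-tRNA, had 15773 and 17663 in mock, 26545 and 19086 under MT1-MMP siRNA, and 15042 and 16526 under alpha3 siRNA. EEF1D, its exchange factor, had 2666 and 2118, then 2704 and 2367, then 3328 and 2893. DOHH, which completes the hypusine of EIF5A, had 174.5 and 166.5, then 146.4 and 101.2, then 200.2 and 205.8. EEF1A1 was above mock with MT1-MMP siRNA and DOHH below it, and EEF1D and DOHH were above mock with alpha3 siRNA, with limma adjusted p-values of at least 0.315.

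Initiation factors had medians of -0.13 with MT1-MMP siRNA over 34 genes (9 at an unadjusted p under 0.05) and 0.04 with alpha3 siRNA (0 at that level). EIF6, which keeps the large ribosomal subunit apart from the small one, was the only listed gene called in any comparison and was lower with MT1-MMP siRNA than with alpha3 siRNA. It had 2640 and 2826 in mock, 1444 and 1702 under MT1-MMP siRNA, and 3711 and 3306 under alpha3 siRNA, and the difference between the siRNA groups was -1.14 (SE 0.17, limma adjusted p = 0.0297). That is 1 of 87 listed genes, where 1.37% of all probe sets were called, and with either MT1-MMP siRNA array left out 0 probe sets passed. EIF5, the GTPase activator of initiation, had 2250 and 2283, then 1128 and 1030, then 1883 and 2997 (limma adjusted p = 0.165 with MT1-MMP siRNA). EIF2B3, a subunit of the exchange factor of EIF2, had 714.6 and 522.6, then 278.8 and 419.9, then 465.9 and 557.8. EIF4E2, a cap-binding protein, had 638.7 and 538.6, then 934.1 and 902.4, then 664.4 and 875.7. EIF5 and EIF2B3 were below mock and EIF4E2 above it on both MT1-MMP siRNA arrays, without a call. Of the 34 genes, 13 were separated on the lower side in that comparison and 9 on the higher side, against 24.8% and 24.3% of all probe sets. EIF4E2 was also above mock on both alpha3 siRNA arrays (limma adjusted p = 0.892).

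Mitochondria use a separate set of release factors, of which 3 of 7 listed genes were tested. MRPL58, a ribosome-bound peptide release enzyme, had 586.0 and 427.0 in mock, 311.1 and 385.7 under MT1-MMP siRNA, and 498.5 and 601.0 under alpha3 siRNA. HEMK1, a methyltransferase of release factors, had 148.3 and 125.5, then 188.4 and 204.7, then 260.2 and 146.6. MTRF1, a release factor paralogue, had 41.6 and 73.6, then 96.3 and 59.0, then 45.1 and 39.2. MRPL58 was below mock and HEMK1 above it on both MT1-MMP siRNA arrays, MTRF1 overlapped, and none of the 3 had an unadjusted p under 0.05 against mock.

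**Figure D4:**
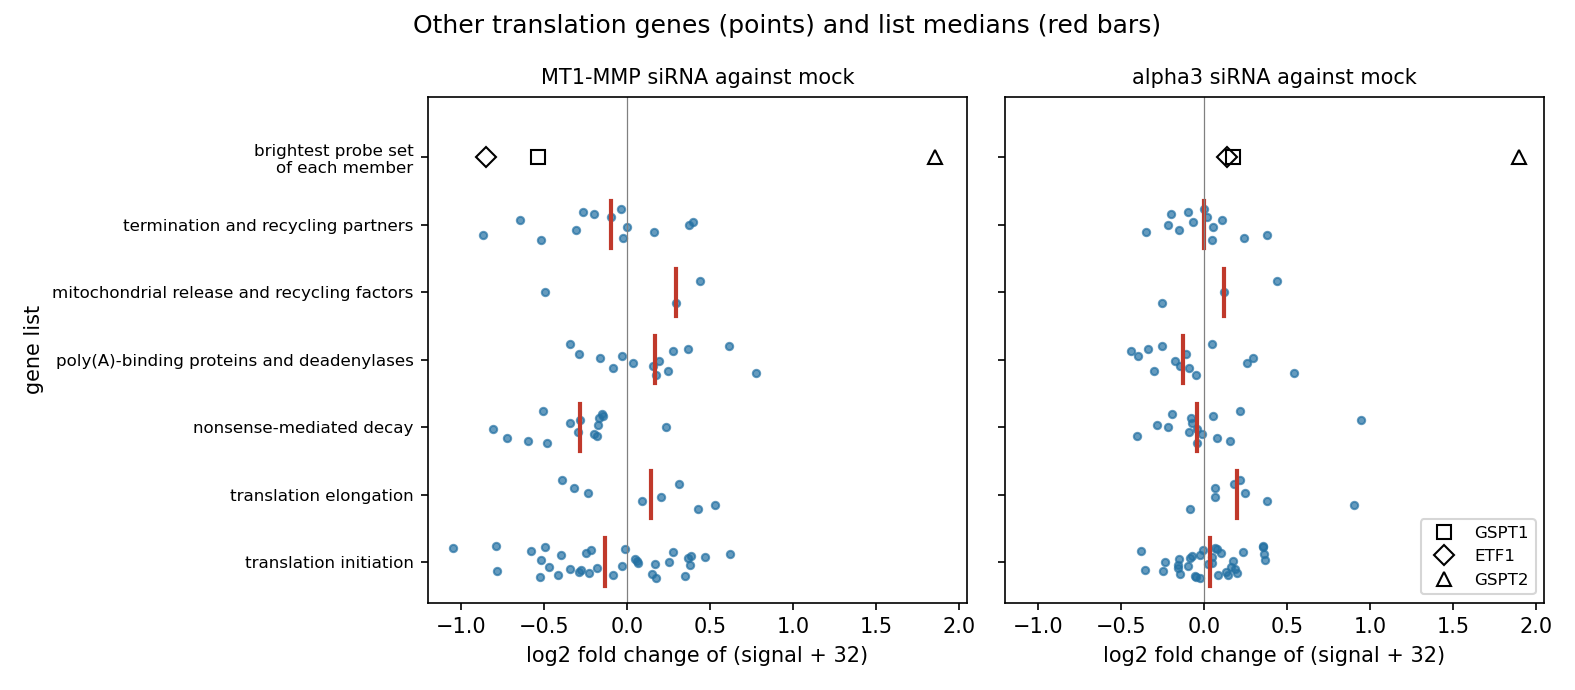
Log2 fold change of (signal + 32) against mock for MT1-MMP siRNA (left) and alpha3 siRNA (right), with open symbols for the brightest probe set of GSPT2, GSPT1 and ETF1, points for the tested genes of each list and red bars for list medians. GSPT2 lies at 1.85 and 1.9 and was chosen for its rise over mock, so nothing is read from its place relative to the listed genes. The nonsense-mediated decay median lies at -0.28 on the left and -0.04 on the right.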

How the data were processed

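RNA of 6 HT1080 samples in 3 groups of 2 had been measured on single-channel arrays. The deposited values are the intensity per probe set on a linear scale. After trimming 2% of probe sets at either end, each array averaged 250.1, a common scale that the authors had set before deposit. How probes were summarised is not given in the sources consulted. No pair of arrays shared more than 92 identical values.

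The platform annotation gave a single gene symbol to 19065 probe sets, several to 1043 and none to 2107, and 68 were array controls. Values under 1 were set to 1, log2(value + 32) was taken, and probe sets under the 40th percentile of mean log2 value were removed. limma 3.58.1 in R 4.3.3 (lmFit, eBayes with intensity trend) fitted the 3 group means to all 6 arrays over 11828 probe sets, each on its own, with Benjamini-Hochberg adjustment over all of them and a threshold of 0.05. The fit had 3 residual and 5.52 prior degrees of freedom. The 2 arrays per group limit the precision. Genes of a list were represented by their brightest tested probe set, and the text names called members plus up to 3 with the lowest unadjusted p against mock.

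Members, lists and alternatives were chosen with earlier results of these data known. The fit was tested on 20 simulated data sets with 200 changed probe sets each. It recovered 23.2% of log2 changes of 1, 77.2% of changes of 2 and 92.7% of changes of 3, with 4.16% false among calls. Changes of 1 were thus mostly missed. Start-region sequences came from RefSeq (GRCh38.p14), where all 3 genes were matched. Figures were drawn with matplotlib 3.10.9.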

Additional observations from a re-analysis of the deposited data

Results flagged for a closer look

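EIF6 210213_s_at differed between the siRNA groups by -1.14 on the log2 scale (MT1-MMP siRNA against alpha3 siRNA, limma adjusted p = 0.0297), the only gene of the trio or of the named list genes that did. It was lower than mock with MT1-MMP siRNA and higher with alpha3 siRNA on both arrays of each group. It was 1 call among 87 listed genes tested, where 1.37% of all probe sets were called, and with either MT1-MMP siRNA array left out 0 probe sets passed in this comparison.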

How the results depend on the processing

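The rise of GSPT2 above mock kept its direction under each alternative that could be fitted, and its size followed the offset. GSPT2 was chosen for this rise and its siRNA arrays did not overlap with mock, so the kept direction adds no support. The filter at the 60th percentile removed GSPT2, so it has no value there. An offset of 1 gave 2.78 for MT1-MMP siRNA, 2.83 for alpha3 siRNA and 2.81 for their mean, and an offset of 100 gave 1.12, 1.16 and 1.14. Leaving out 1 array at a time gave 1.78 to 1.92, 1.83 to 1.97 and 1.80 to 1.95. The difference of GSPT2 between the siRNA groups ranged from -0.10 to 0.0082.

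Leaving out 1 array gave GSPT1 215438_x_at from -0.62 to 0.13 with MT1-MMP siRNA, -0.27 to 0.48 with alpha3 siRNA and -0.44 to 0.30 for their mean, GSPT1 201912_s_at from -0.070 to 0.42 and ETF1 201574_at from -0.11 to 0.39 with alpha3 siRNA, and ETF1 201573_s_at from -0.10 to 0.092 for the mean. For the mean, ETF1 201573_s_at was 0.011 after quantile normalization and 0.0092 at a common 75th percentile. The third GSPT1 probe set, 217595_at, was fitted only without the filter.

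Counts of called probe sets were small and moved with most settings. With MT1-MMP siRNA against mock, 2 became 10 at a common 75th percentile, 4 and 15 with offsets of 1 and 100, 0 without a filter, at the 60th percentile or with the brightest probe set per gene, 1 without the trend, 12 with only the groups compared, and 0 to 13 without 1 array. With alpha3 siRNA against mock, 1 became 0 with an offset of 1 or the 60th percentile filter, 2 with the brightest probe set per gene, and 0 to 9 without 1 array. Between the siRNA groups 162 became 1 without a filter, 84 without the trend, and 0 to 152 without 1 array. For the mean of both, 2 became 0 with an offset of 100, without a filter or at the 60th percentile, 1 with the brightest probe set per gene, and 0 to 8 without 1 array. The cause of these changes was not tested, except that a left-out array also removes a residual degree of freedom.

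The titles' numbers do not show that arrays were paired. Differences between replicates 1 and 2 correlated at -0.19 across probe sets between mock and MT1-MMP siRNA, -0.17 between mock and alpha3 siRNA and 0.13 between the siRNA groups. The replicate block gave 6 calls with MT1-MMP siRNA and 0 for the mean. With the mock numbers crossed, chosen after seeing the data, the block gave 97, 5, 830 and 0 calls in the same order of comparisons. ETF1 201574_at, at -0.99 between the siRNA groups, then passed (limma adjusted p = 0.0158). This crossing puts together the higher array of each group for the GSPT1 and ETF1 probe sets above the filter. The pass of ETF1 is therefore no independent support. Of 204 list medians under alternatives, 181 moved by less than the spread between replicates.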
